A study of Mus musculus with 16 samples.

Results

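Transforming growth factor beta (TGF-beta) and bone morphogenetic protein (BMP) signalling were followed through 9 genes of the mouse kidney. These were the ligands Tgfb1, Tgfb2 and Tgfb3, the ligand-storage protein gene Ltbp1, the receptors Tgfbr1 and Tgfbr2, the induced inhibitors Smad7 and Skil, and the BMP ligand Bmp7. They were taken by Ensembl ID and symbol, and all 9 were found among the 40472 genes of the table. The deposited IDs were ENSMUSG00000002603.16 (Tgfb1), ENSMUSG00000039239.15 (Tgfb2), ENSMUSG00000021253.8 (Tgfb3), ENSMUSG00000001870.17 (Ltbp1), ENSMUSG00000007613.16 (Tgfbr1), ENSMUSG00000032440.14 (Tgfbr2), ENSMUSG00000025880.12 (Smad7), ENSMUSG00000027660.17 (Skil) and ENSMUSG00000008999.8 (Bmp7). The libraries were poly(A)-selected RNA from kidneys of male C57BL/6 mice aged 12 weeks, in 4 groups of 4. Group IRP had renal ischemia reperfusion, a temporary arrest of blood flow, together with PJ34, a compound that inhibits PARP enzymes, which attach ADP-ribose chains to proteins. Group IRV had ischemia reperfusion and vehicle, group NP was uninjured and received PJ34, and group NV was uninjured and received vehicle. The study asked about the effect of PJ34 in the longer term after injury; the labels give no day of collection. The labels number the replicates but name no animals, and every p-value below therefore covers the spread among libraries, which may be technical.

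TGF-beta ligands are secreted in a latent complex, bound through their propeptide to latent TGF-beta binding proteins in the matrix. Once released, they bind the type II receptor TGFBR2, which recruits and phosphorylates the type I receptor TGFBR1, and this in turn phosphorylates the transcription factors SMAD2 and SMAD3. In the kidney the pathway is best known for driving matrix production in fibrosis, whereas BMP7, made by tubules and podocytes, signals through SMAD1, SMAD5 and SMAD9 and counteracts TGF-beta in several injury models.

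The windows upstream of the ligand Tgfb1 and its receptor pair Tgfbr1 and Tgfbr2 are shown, as a ligand and receptors higher after injury in both treatments. Ltbp1 was called higher in both too, and its windows are not shown. Each is the 250 bases before a RefSeq transcript start, read 5′ to 3′ on the gene's strand (build GRCm38.p6). Tgfb1 is at chr7:25686752-25687001 on the plus strand, Tgfbr1 at chr4:47352972-47353221 on the plus strand, and Tgfbr2 at chr9:116175364-116175613 on the minus strand. Capitals mark the letters CAGAC, the core of the Smad-binding element, or GGCGC, a GC-rich Smad motif, on either strand.
Tgfb1: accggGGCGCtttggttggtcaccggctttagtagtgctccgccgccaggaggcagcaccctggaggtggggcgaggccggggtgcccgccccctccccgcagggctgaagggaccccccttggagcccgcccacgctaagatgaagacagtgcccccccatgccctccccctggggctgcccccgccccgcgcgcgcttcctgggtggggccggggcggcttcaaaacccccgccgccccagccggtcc
Tgfbr1: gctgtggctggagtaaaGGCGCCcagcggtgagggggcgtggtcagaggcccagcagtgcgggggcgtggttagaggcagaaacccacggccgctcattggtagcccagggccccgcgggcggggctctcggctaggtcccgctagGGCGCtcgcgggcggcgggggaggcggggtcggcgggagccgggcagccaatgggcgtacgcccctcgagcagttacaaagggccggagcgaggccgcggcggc
Tgfbr2: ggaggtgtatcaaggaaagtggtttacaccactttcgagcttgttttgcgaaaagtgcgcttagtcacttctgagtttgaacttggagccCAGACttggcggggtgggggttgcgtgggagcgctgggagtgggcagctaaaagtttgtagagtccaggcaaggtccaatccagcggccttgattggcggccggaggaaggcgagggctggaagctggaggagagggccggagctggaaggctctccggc

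The Tgfb1 window held 1 match to GGCGC and none to CAGAC. The Tgfbr1 window held 3 matches to GGCGC, of which a pair overlap on opposite strands, and none to CAGAC. RefSeq also has a second Tgfbr1 start, whose window (chr4:47385966-47386215, not shown) held 1 match to CAGAC and none to GGCGC, and had a GC content of 52.8%. The Tgfbr2 window held 1 match to CAGAC and none to GGCGC. None of these windows held TGANTCA, the AP-1 motif. Across all 32851 windows of the same length, 42.2% held CAGAC, 32% held GGCGC and 6.75% held TGANTCA, so either Smad motif is common in such windows. The GC content was 75.2% for Tgfb1, 74.8% for the Tgfbr1 window shown and 58.4% for Tgfbr2, against a median of 52.4% over all windows. Promoter entries were found for 5 of the 9 genes. Of the genes not shown, the Tgfb2 window held 2 matches to CAGAC and none to GGCGC. The Ltbp1 windows held 1 and 2 matches to CAGAC, and 1 and 0 to GGCGC.

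Sequencing depth differed between libraries. The 4 IRP libraries, with IRV replicates 3 and 4, are called deep (4963638 to 6169748 counts in total), and the other 10 are called shallow (973812 to 1659983 counts). Olfactory, vomeronasal, taste and trace-amine receptor genes together took 330.2 to 634 counts per 1000000 (CPM) in deep and 5095 to 9989 CPM in shallow libraries, so the sets differed in composition too. Depth set and group overlap through IRV alone, so the injury tests were repeated with the set as a covariate, and IRP and NP share no set. Levels below are CPM on library sizes scaled by the trimmed mean of M-values (TMM), listed for replicates 1 to 4. CPM is not corrected for gene length, so levels are not compared between genes.

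**Figure D1:**
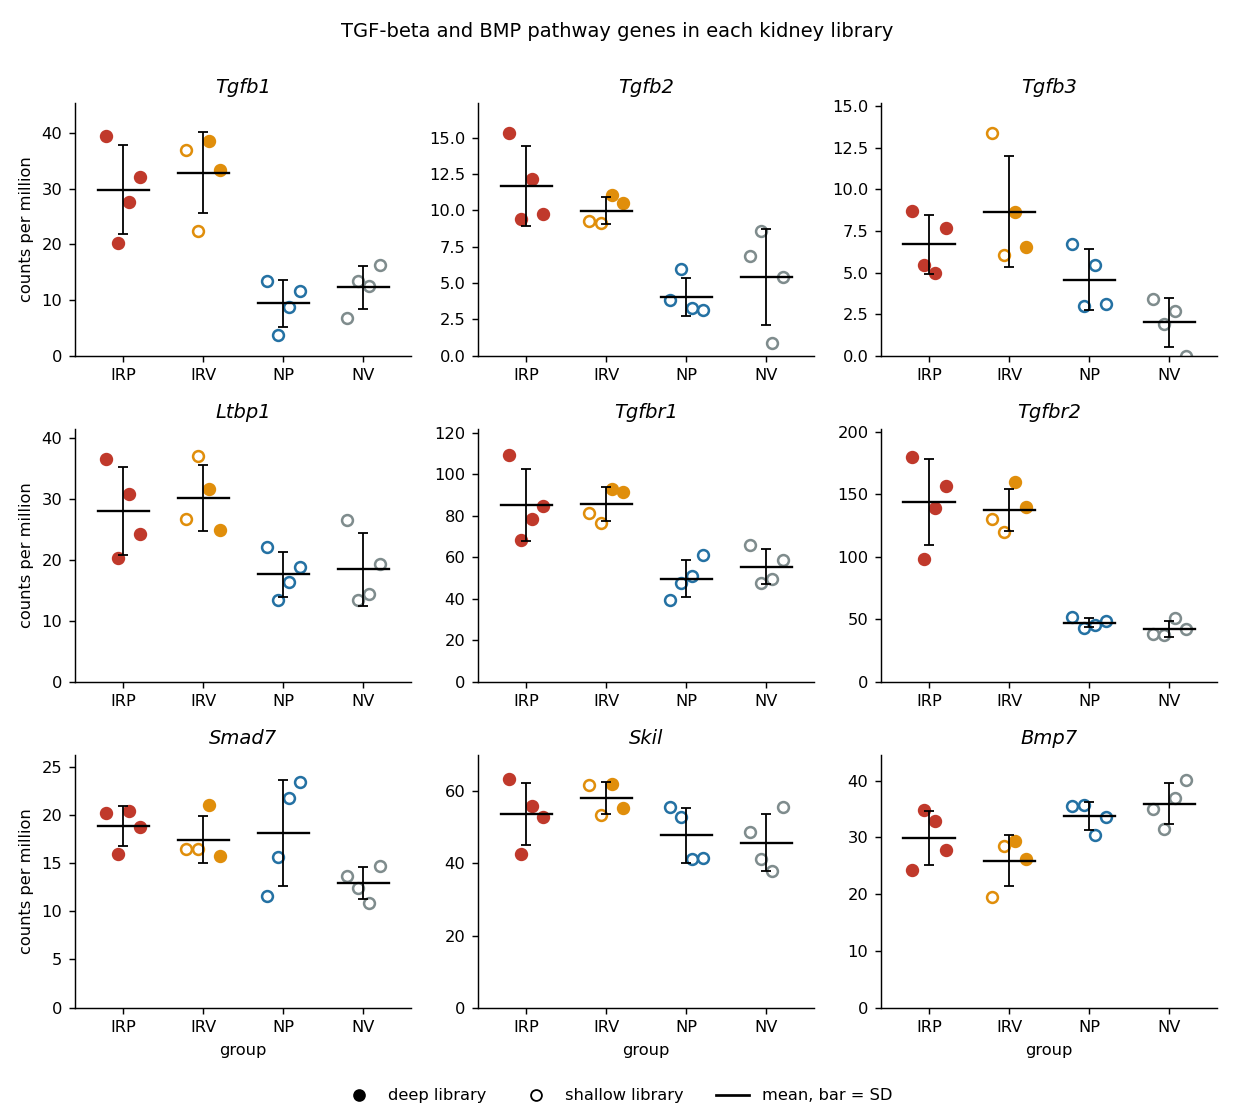
CPM of each gene (vertical axis, linear from 0) in the 4 libraries of IRP, IRV, NP and NV; filled points are deep libraries, open points shallow ones, and the bar is the mean with its SD. Tgfb1 and Tgfbr2 sit higher in all IRP and IRV libraries than in any NP or NV library, and Bmp7 has its lowest library, at 19.5 CPM, in IRV.

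The comparison of IRV with NV asked how injury without inhibitor changed these genes. Tgfb1, Tgfb3, Tgfbr1, Tgfbr2 and Ltbp1 rose in IRV, while Bmp7 fell, although its sign turned with library totals alone as scaling. Tgfb2, Smad7 and Skil did not pass the threshold, an adjusted p under 0.05 in edgeR's quasi-likelihood test with Benjamini-Hochberg adjustment over the 13614 genes tested. These 5 higher and 1 lower of the 9 genes stand beside 15.9% of all tested genes higher (2162) and 11.1% lower (1511) in IRV. The median log2 fold change was 0.69 for the 9 genes and -0.03 for all tested genes. Comparing IRP with NP, the same injury contrast under PJ34, Tgfb1, Tgfb2, Tgfbr1, Tgfbr2 and Ltbp1 rose in IRP and none of the 9 fell, beside 19.6% of all tested genes higher (2671) and 24.0% lower (3264). The median was 0.68 for the 9 genes and -0.01 for all. All 9 genes passed the filter on low counts, but Tgfb2 and Tgfb3 did so through the injured groups: a level over the filter of 6.29 CPM was reached for Tgfb3 in 2 IRP, 3 IRV, 0 NP and 0 NV libraries, and for Tgfb2 in 4 IRP, 4 IRV, 0 NP and 1 NV libraries. In whole-kidney RNA, fewer cells of a type and less RNA per cell cannot be told apart.

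**Figure D2:**
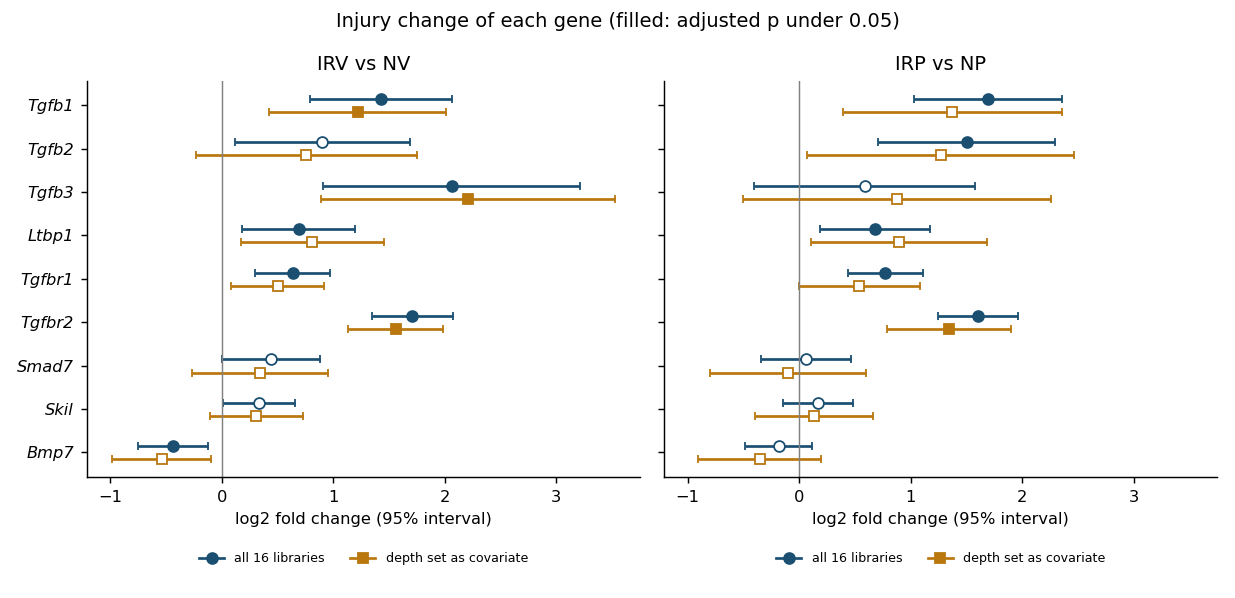
The log2 fold change of each gene with its 95% interval for IRV against NV (left) and IRP against NP (right); circles are from all 16 libraries, squares from the fit with depth set as covariate, and filled symbols have an adjusted p under 0.05. Tgfbr2 has filled symbols in both fits of both comparisons, and Bmp7 lies left of 0 in all 4, although with library totals alone as scaling it came to 0.09 (IRV against NV) and 0.39 (IRP against NP).

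Among the ligands, Tgfb1 encodes the isoform most studied in renal fibrosis. Tgfb1 was at 39.4, 20.3, 27.6 and 32.1 CPM in IRP, 37, 22.5, 38.6 and 33.4 CPM in IRV, 13.5, 3.72, 8.70 and 11.7 CPM in NP, and 6.84, 13.4, 12.6 and 16.2 CPM in NV. Every injured library lay above every uninjured one. The counts behind these levels summed to 827 in IRP, 606 in IRV, 42 in NP and 57 in NV, so the uninjured levels are the least precise. Tgfb1 was higher by a log2 fold change of 1.43 ± 0.30 (SE; edgeR adjusted p = 0.00233) in IRV than in NV and by 1.69 ± 0.31 (adjusted p = 0.000554) in IRP than in NP. With the depth set as covariate the change was 1.22 (edgeR adjusted p = 0.0376) for IRV against NV and 1.37 (adjusted p = 0.116) for IRP against NP. Within shallow libraries, with 2 IRV against 4 NV, it was 1.21 (edgeR adjusted p = 0.0211).

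Tgfb2 encodes a ligand that binds TGFBR2 weakly without the co-receptor betaglycan. Tgfb2 was at 15.3, 9.42, 12.2 and 9.74 CPM in IRP, 9.25, 9.12, 11.1 and 10.5 CPM in IRV, 3.84, 5.95, 3.26 and 3.12 CPM in NP, and 6.84, 8.61, 0.900 and 5.41 CPM in NV. The injured and uninjured libraries did not overlap, and NV replicate 3 was the lowest of all. This separation rests on few counts, since IRV replicate 1 and NV replicate 2 held 9 Tgfb2 counts each. The counts summed to 323 in IRP, 184 in IRV, 19 in NP and 25 in NV. The rise in IRP over NP was 1.5 ± 0.38 on the log2 scale (SE; edgeR adjusted p = 0.00407), but the call was lost with the depth set as covariate (1.27, adjusted p = 0.251) and with limma-voom (1.39, adjusted p = 0.0838). The difference of IRV from NV was 0.90 ± 0.37 (edgeR adjusted p = 0.0814), which did not pass. Leaving out single libraries gave 0.49 to 1.19, and 15 of 16 omissions left it uncalled (edgeR adjusted p up to 0.236). Only leaving out NV replicate 2 gave a call, at 1.19 (edgeR adjusted p = 0.0464).

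Tgfb3, the ligand with the fewest counts over all libraries, was at 8.70, 5.44, 4.99 and 7.66 CPM in IRP, 13.4, 6.08, 8.66 and 6.52 CPM in IRV, 6.73, 2.98, 5.44 and 3.12 CPM in NP, and 3.42, 1.91, 2.70 and 0 CPM in NV. IRV lay above NV without overlap, whereas IRP overlapped NP. NV held only 9 Tgfb3 counts over its 4 libraries and NP held 20. The rise in IRV over NV was 2.06 ± 0.55 on the log2 scale (SE; edgeR adjusted p = 0.01), and 2.21 with the depth set as covariate (adjusted p = 0.0253). The difference of IRP from NP was 0.59 ± 0.47 (edgeR adjusted p = 0.333), and the difference between these contrasts was -1.47 ± 0.74 (adjusted p = 0.475), so the injury changes were not shown to differ. Tgfb3 had too few counts to be tested within shallow libraries, and limma-voom did not call its rise in IRV (adjusted p = 0.118).

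Ltbp1 encodes a matrix protein that holds latent TGF-beta. Ltbp1 was at 36.5, 20.3, 30.8 and 24.3 CPM in IRP, 26.7, 37.1, 31.5 and 24.9 CPM in IRV, 22.1, 13.4, 16.3 and 18.7 CPM in NP, and 26.5, 13.4, 14.4 and 19.3 CPM in NV. The groups overlapped in both injury contrasts. The changes were 0.69 ± 0.24 on the log2 scale for IRV against NV (SE; edgeR adjusted p = 0.0413) and 0.68 ± 0.23 for IRP against NP (adjusted p = 0.0269). Both calls were lost with the depth set as covariate, at 0.81 (edgeR adjusted p = 0.0835) for IRV against NV and 0.89 (adjusted p = 0.218) for IRP against NP, and with limma-voom (adjusted p = 0.0819 for IRV against NV and 0.0795 for IRP against NP). DESeq2 did not call IRV against NV (adjusted p = 0.0507), and leaving out single libraries ended that call in 11 of 16 cases.

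The receptors rose in both injury contrasts. Tgfbr2, which binds the ligand and starts the signal, was at 180.0, 98.4, 139 and 157 CPM in IRP, 131, 120.3, 160.0 and 140.3 CPM in IRV, 51.9, 43.1, 45.7 and 48.4 CPM in NP, and 38.5, 37.3, 51.3 and 42.5 CPM in NV. The lowest injured library, IRP replicate 2, was still above the highest uninjured one. Tgfbr2 was 3.27-fold higher in IRV than in NV (log2 1.71 ± 0.17, SE; edgeR adjusted p = 7.75e-06) and 3.04-fold higher in IRP than in NP (log2 1.61 ± 0.17; adjusted p = 8.81e-06). It kept both calls with the depth set as covariate, at 1.56 (edgeR adjusted p = 9.74e-05) for IRV against NV and 1.34 (adjusted p = 0.00977) for IRP against NP, and was 1.55 higher in IRV than in NV within shallow libraries (adjusted p = 2.6e-05). In that shallow fit, where Tgfb3 was not tested, Tgfb1 and Tgfbr2 were the 2 of these genes called. Of all genes tested there, 6.58% were higher and 6.83% lower in IRV.

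Tgfbr1, the kinase that phosphorylates SMAD2 and SMAD3, was at 109, 68.3, 78.7 and 84.6 CPM in IRP, 81.2, 76.6, 93.2 and 91.7 CPM in IRV, 39.4, 47.6, 51.1 and 60.9 CPM in NP, and 65.8, 47.8, 49.5 and 58.7 CPM in NV. The injured libraries again lay above the uninjured ones, with NV replicate 1 and IRP replicate 2 close to each other. The rises were smaller than those of Tgfbr2 in value, at 0.63 ± 0.16 on the log2 scale for IRV against NV (SE; edgeR adjusted p = 0.00744) and 0.77 ± 0.16 for IRP against NP (adjusted p = 0.00112). With the depth set as covariate the change was 0.50 for IRV against NV (edgeR adjusted p = 0.103) and 0.54 for IRP against NP (adjusted p = 0.283), and neither passed.

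SMAD7 blocks the activated type I receptor, and SKIL (SnoN) represses SMAD target genes; both genes are induced by TGF-beta in many cell types. Smad7 was at 20.2, 15.9, 20.4 and 18.7 CPM in IRP, 16.4, 16.4, 21 and 15.7 CPM in IRV, 11.5, 15.6, 21.7 and 23.4 CPM in NP, and 13.7, 12.4, 10.8 and 14.7 CPM in NV. NV was the lowest group, with all its libraries below all IRV libraries, while NP spanned nearly the whole range. The difference of IRV from NV was 0.44 ± 0.21 on the log2 scale (SE; edgeR adjusted p = 0.124), and that of IRP from NP was 0.06 ± 0.19 (adjusted p = 0.83), with a 95% interval of -0.34 to 0.46.

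Skil was at 63.6, 42.6, 55.9 and 52.9 CPM in IRP, 61.7, 53.5, 62.1 and 55.4 CPM in IRV, 55.7, 52.8, 41.3 and 41.4 CPM in NP, and 48.7, 41.1, 37.8 and 55.6 CPM in NV. All 4 groups overlapped. The difference was 0.34 ± 0.15 on the log2 scale for IRV against NV (SE; edgeR adjusted p = 0.112) and 0.17 ± 0.15 for IRP against NP (adjusted p = 0.38). Neither inhibitor gene thus passed the test with TMM scaling in either injury contrast. With library totals alone, both were called higher in IRV (edgeR adjusted p = 0.00617 for Smad7 and 0.0033 for Skil) and in IRP (0.0274 for Smad7 and 0.0033 for Skil), where the median of all genes was 0.49 for IRV against NV and 0.57 for IRP against NP. Without the filter on low counts, Skil was called in IRV (adjusted p = 0.0203) and in IRP (adjusted p = 0.00934), and Smad7 in IRV (adjusted p = 0.0454).

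Bmp7, the BMP arm's ligand, was at 24.3, 34.8, 32.9 and 27.8 CPM in IRP, 19.5, 28.6, 29.4 and 26.2 CPM in IRV, 35.6, 35.7, 30.4 and 33.6 CPM in NP, and 35.1, 31.6, 36.9 and 40.2 CPM in NV. All IRV libraries lay below all NV libraries, and IRP overlapped NP. Bmp7 fell to 25.9 ± 4.47 CPM in IRV, against 35.9 ± 3.59 CPM in NV (SD, n = 4 each). The log2 fold change was -0.44 ± 0.15 (SE, edgeR adjusted p = 0.0378). With library totals alone as scaling its sign flipped to 0.09 (edgeR adjusted p = 0.704), while the median of all genes moved to 0.49. Relative to the median of all genes it was -0.40 with library totals and -0.41 with TMM. Scaling moves all genes of a library alike, so these values match by construction and do not test the fall. Without the filter on low counts, the change of Bmp7 was -0.11 (edgeR adjusted p = 0.748), which is 0.20 above the median of all genes in that fit. The call was also lost within shallow libraries (-0.55, edgeR adjusted p = 0.154), with the depth set as covariate (-0.54, edgeR adjusted p = 0.1), with DESeq2 (adjusted p = 0.0825) and on leaving out IRV replicate 1, IRV replicate 4, NV replicate 3 or NV replicate 4 (edgeR adjusted p = 0.0538 to 0.0781). The difference of IRP from NP was -0.18 ± 0.14 on the log2 scale (edgeR adjusted p = 0.322), with a 95% interval of -0.49 to 0.12, and turned to 0.39 with library totals alone and 0.25 without the filter on low counts.

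The balance of the pathway's arms was described by the log2 ratio of Tgfb1 to Bmp7 counts in each library, with 0.5 added to each count; as a ratio within a library, it does not use the scaling between libraries. It was 0.70, -0.77, -0.25 and 0.21 in IRP, 0.90, -0.34, 0.39 and 0.35 in IRV, -1.37, -3.14, -1.75 and -1.49 in NP, and -2.29, -1.21, -1.52 and -1.29 in NV. Every injured library was above every uninjured one. Of the injured libraries, only IRV replicates 1 and 2 are shallow like the uninjured ones, and the part of depth in the ratio was not tested. The mean ratio was 1.90 higher in IRV than in NV and 1.91 higher in IRP than in NP on the log2 scale. It was 0.36 lower (-0.36) in IRP than in IRV and differed by the same -0.36 between NP and NV, each less than the SD within IRP (0.63) or NP (0.82). The shift combines both genes, of which Tgfb1 moved more.

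**Figure D3:**
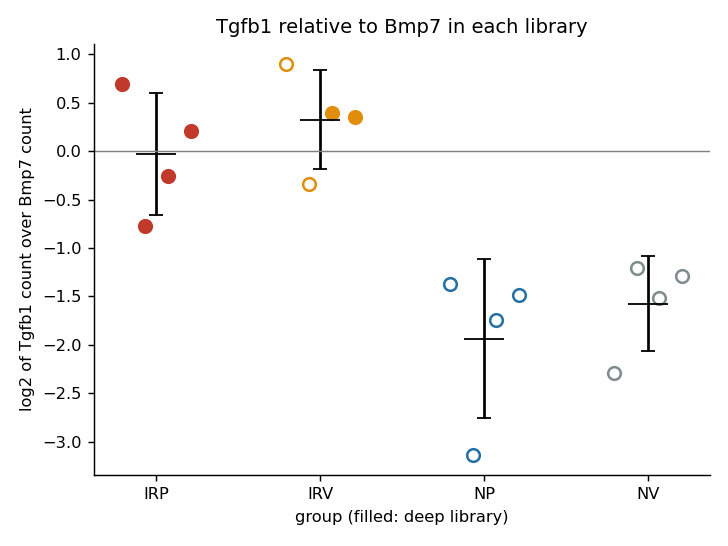
The log2 ratio of Tgfb1 to Bmp7 counts (vertical axis) in each library of IRP, IRV, NP and NV, with mean and SD; filled points are deep libraries. The injured groups average -0.03 (IRP) and 0.33 (IRV), and the uninjured groups -1.94 (NP) and -1.58 (NV), with no overlap.

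PJ34 was compared with vehicle in injured kidneys (IRP against IRV) and in uninjured ones (NP against NV). None of the 9 genes passed edgeR's test in either. The background of calls was the same, with 0 of 13614 genes called (0% higher and 0% lower) in each. All 9 overlapped between groups in both comparisons, but the share of all genes that overlapped was not counted. At an unadjusted p under 0.05, edgeR gave 1832 genes for IRP against IRV and 501 for NP against NV, of which 0 and 1 were among the 9. DESeq2 called 5 genes higher and 1277 lower in IRP than in IRV and 3 higher and 1 lower in NP than in NV, and limma-voom called 0 in each; none of the 9 was among the DESeq2 calls.

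In injured kidneys the intervals bounded the PJ34 differences as follows. The 95% interval for IRP against IRV was -0.27 to 0.37 on the log2 scale for Tgfbr2, -0.33 to 0.29 for Tgfbr1 and -0.65 to 0.35 for Tgfb1. It was -0.12 to 0.45 for Bmp7, around a difference of 0.17 (edgeR adjusted p = 0.766), with 29.9 ± 4.79 CPM in IRP and 25.9 ± 4.47 CPM in IRV (SD, n = 4 each). The widest interval was that of Tgfb3, -1.17 to 0.55. In this fit of all 16 libraries, the receptor values leave room for changes of up to about 0.4 on the log2 scale, and Tgfb3 for larger ones. Within deep libraries, with 4 IRP against 2 IRV, the differences ran from -0.27 for Tgfb1 to 0.12 for Tgfb2, and every adjusted p was 1. The receptor intervals were wider there, at -0.54 to 0.41 for Tgfbr2 and -0.50 to 0.26 for Tgfbr1, and so leave room for larger changes.

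In uninjured kidneys the PJ34 differences of Tgfb3 and Smad7 were the highest. Tgfb3 averaged 4.57 ± 1.83 CPM in NP and 2.01 ± 1.47 CPM in NV (SD, n = 4 each), a difference of 1.17 ± 0.61 on the log2 scale (SE; edgeR adjusted p = 1) resting on 20 counts in NP and 9 in NV. Smad7 averaged 18.1 ± 5.51 CPM in NP and 12.9 ± 1.67 CPM in NV, a difference of 0.48 ± 0.22 (SE), which was the gene with an unadjusted p under 0.05 (0.0484; edgeR adjusted p = 1). NP replicate 1 lay within the NV range for Smad7 and the other 3 NP libraries above it. Every interval other than that of Smad7 included 0.

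**Figure D4:**
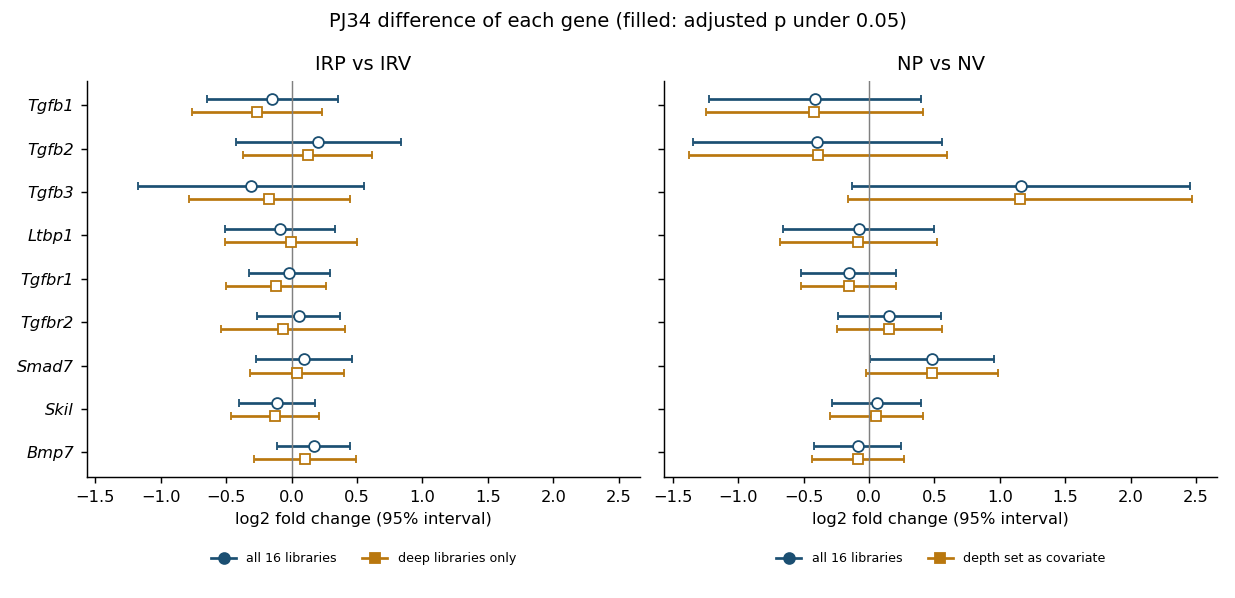
The log2 fold change of each gene with its 95% interval for IRP against IRV (left) and NP against NV (right); circles are from all 16 libraries, squares from deep libraries only (left) or the fit with depth set as covariate (right). No symbol is filled, since no adjusted p was under 0.05, and the widest intervals are those of Tgfb3 in NP against NV.

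The interaction, the injury change under PJ34 (IRP minus NP) minus that under vehicle (IRV minus NV), passed edgeR's test for none of the 9 genes and for 0 of 13614 genes (0%). At an unadjusted p under 0.05 it gave 1550 genes and none of the 9, DESeq2 called 1 gene higher and 21 lower, and limma-voom called 0. For Tgfbr2 the difference was -0.10 with a 95% interval of -0.61 to 0.40, for Tgfb1 0.27 with -0.69 to 1.22, and for Bmp7 0.25 with -0.18 to 0.69. Bmp7 passing in IRV against NV and not in IRP against NP is therefore not a shown difference between treatments (edgeR adjusted p = 0.791), and neither is Tgfb2 passing only under PJ34 (adjusted p = 0.788).

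The rest of the pathway was read from 11 lists of 86 genes, of which 77 are not among the 9 and 63 of those were tested. Of these 63, 31 rose and 3 fell in IRV against NV, with a median log2 fold change of 0.72. Beside them, 15.9% of all tested genes rose and 11.1% fell, with a median of -0.03. In IRP against NP, 32 of the 63 rose and 4 fell, with a median of 0.74. There 19.6% of all tested genes rose and 24.0% fell, with a median of -0.01. With the depth set as covariate, 23 of the 63 rose and 1 fell in IRV against NV, beside 7.93% and 6.13% of all genes. In that fit 13 rose and 1 fell in IRP against NP, beside 2.52% and 0.786%. None of the 63 passed in IRP against IRV, NP against NV or the interaction. The shares of each fit stand beside the list counts below too.

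Of 12 genes of the latent complex and its activation, Ltbp1 included, 9 rose and 0 fell in IRV, and 9 rose and 1 fell in IRP. The covariate for depth set left 6 higher in IRV, 4 higher in IRP and none lower. The gene that fell in IRP was Itgb8, an integrin subunit that activates latent TGF-beta (-0.35 on the log2 scale, edgeR adjusted p = 0.0282, and 0.0906 with the covariate), named here after its value was seen. Fbn1, encoding the fibrillin on which the complexes are stored, averaged 119 ± 35 CPM in IRP, 124 ± 21.1 CPM in IRV, 28.8 ± 6.17 CPM in NP and 27.9 ± 9.24 CPM in NV (SD, n = 4 each). Its rise was 2.14 in IRV against NV (edgeR adjusted p = 2.32e-05) and 2.06 in IRP against NP (adjusted p = 2.67e-05) on the log2 scale. Thbs1, encoding the latent TGF-beta activator thrombospondin 1, rose by 1.51 in IRV (edgeR adjusted p = 8.68e-06) and 1.32 in IRP (adjusted p = 1.58e-05). The binding protein genes Ltbp3 (1.89 in IRV, 1.52 in IRP) and Ltbp4 (1.58 in IRV, 1.68 in IRP) rose too. With the covariate, Fbn1, Thbs1, Ltbp3 and Ltbp4 were called in IRV, and in IRP all of these but Ltbp4 (1.06, edgeR adjusted p = 0.0816). All 5 genes of the receptor list rose in both, among them the co-receptor Tgfbr3 (0.86 in IRV, 0.93 in IRP) and the endothelial type I receptor Acvrl1 (1.05 in IRV, 1.10 in IRP); Eng, the endothelial co-receptor endoglin, named after its values were seen, rose by 0.61 in IRV and 0.45 in IRP. Of these, only Tgfbr2 kept its call with the depth set as covariate.

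Of 6 Smad transducers, 2 rose in IRV, and 3 rose and 1 fell in IRP. Smad2 and Smad3, the TGF-beta transducers, rose in both contrasts. Smad2 was higher by 0.78 in IRV (edgeR adjusted p = 0.0016) and 0.62 in IRP (adjusted p = 0.00311), and Smad3 by 0.89 in IRV (adjusted p = 0.00324) and 0.94 in IRP (adjusted p = 0.00124). The covariate for depth set left a call for Smad3 in IRV only (adjusted p = 0.0461). Smad9, a BMP transducer, was lower by a log2 value of -2.08 ± 0.49 in IRP than in NP (SE; edgeR adjusted p = 0.00264), but by -0.63 with the depth set as covariate (adjusted p = 0.684); it passed the filter on low counts through the uninjured groups. Smad1, a BMP transducer too, rose by 0.74 in IRP (adjusted p = 0.0296), which turned to -0.12 with that covariate.

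Of 9 feedback inhibitors tested, 4 rose in each injury contrast, and Smad7 and Skil were not among them. They were Ski, a SMAD co-repressor related to Skil, Smurf1, a ubiquitin ligase for receptors and SMADs, Pmepa1, which sequesters SMAD2 and SMAD3, and Tgif1, a co-repressor. Ski averaged 122 ± 8.36 CPM in IRP, 110.4 ± 10.3 CPM in IRV, 61.3 ± 5.49 CPM in NP and 67.5 ± 5.12 CPM in NV (SD, n = 4 each). Its rise was 0.72 in IRV (edgeR adjusted p = 0.000133) and 0.98 in IRP (adjusted p = 9.26e-06) on the log2 scale. Smurf1 rose by 1.11 in IRV and 1.54 in IRP, Pmepa1 by 1.14 in IRV and 1.31 in IRP, and Tgif1 by 1.53 in IRV and 0.84 in IRP. With the depth set as covariate, all 4 kept their calls in IRV, and Ski, Smurf1 and Pmepa1 kept theirs in IRP.

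Of 15 TGF-beta target genes tested, 10 rose and 0 fell in each contrast, with a median log2 fold change of 1.59 in IRV and 1.74 in IRP. The other 5 were not called in either contrast's count, and the lowest value of the list was -0.18 in IRV and -0.02 in IRP. Col1a1, encoding a collagen I chain, averaged 337 ± 142 CPM in IRP, 323 ± 74.7 CPM in IRV, 38.4 ± 6.00 CPM in NP and 37.3 ± 15.8 CPM in NV (SD, n = 4 each). Its rise was 3.11 in IRV (edgeR adjusted p = 1.29e-05) and 3.14 in IRP (adjusted p = 1.05e-05) on the log2 scale. Fn1, encoding fibronectin, rose by 2.48 in IRV and 2.36 in IRP, Tagln, a smooth muscle gene, by 2.55 in IRV and 1.94 in IRP, and Tgfbi, an extracellular matrix gene, by 2.24 in IRV and 2.18 in IRP. With the depth set as covariate, 10 of the list were higher in IRV and 6 in IRP. Col1a1, Fn1, Tagln and Tgfbi were called in IRV in that fit, and in IRP all of these but Tgfbi (1.48, edgeR adjusted p = 0.0566).

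**Figure D5:**
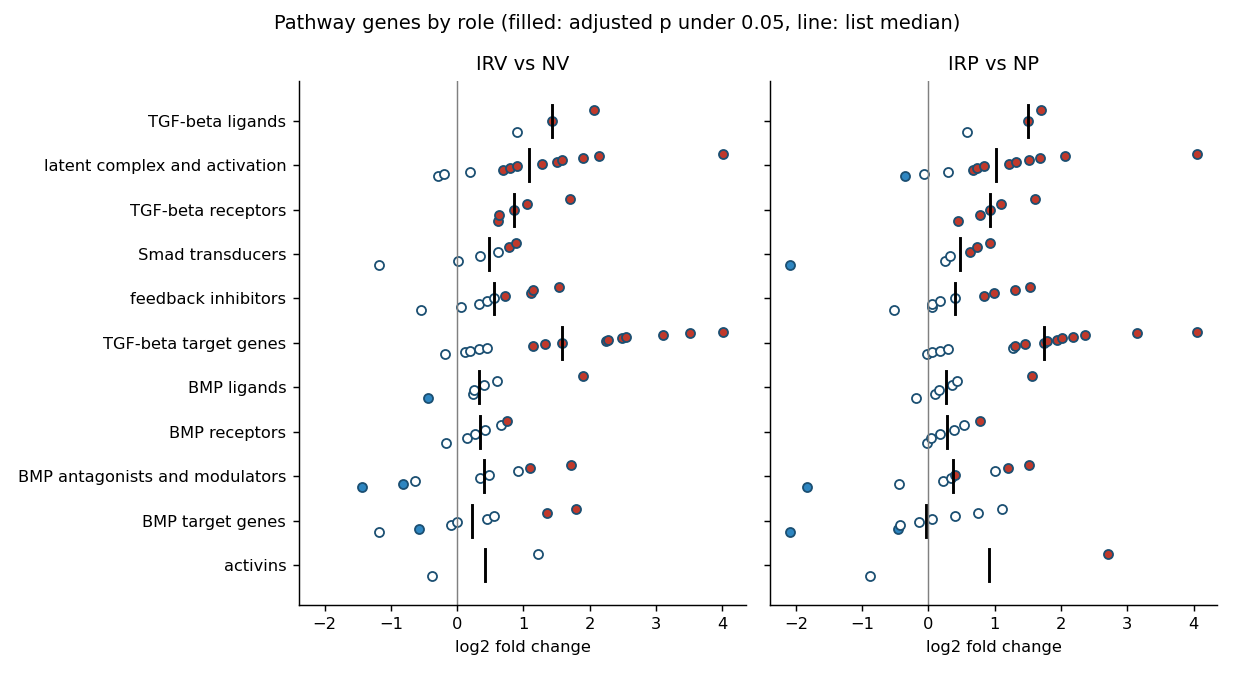
The log2 fold change of each tested gene of the 11 lists for IRV against NV (left) and IRP against NP (right); filled points have an adjusted p under 0.05, red higher and blue lower, and the vertical mark is the list median. The target list has a median of 1.59 (IRV) and 1.74 (IRP), while the BMP target list has medians of 0.22 (IRV) and -0.04 (IRP).

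In the BMP lists the counts were small, and they stand beside 15.9% of all tested genes higher and 11.1% lower in IRV, and 19.6% higher and 24.0% lower in IRP. Of 6 BMP ligands tested, 1 rose and 1 fell in IRV, and 1 rose in IRP; the gene that rose was Bmp1 (1.89 in IRV, 1.56 in IRP), a procollagen protease rather than a BMP ligand, and the gene that fell was Bmp7, whose sign turned with library totals alone. Of 6 BMP receptors, Bmpr1a, a type I BMP receptor, rose by 0.75 in IRV and 0.77 in IRP. These shares are near the background. In the fit with depth set as covariate, Bmp1 (edgeR adjusted p = 0.00737) and Bmpr1a (adjusted p = 0.0383) were called in IRV but not in IRP (adjusted p = 0.108 for Bmp1 and 0.317 for Bmpr1a). Bmp1 passed the filter on low counts through the injured groups. Of 8 BMP antagonists and modulators tested, 2 rose and 2 fell in IRV, and 3 rose and 1 fell in IRP. Twsg1, a modulator of BMP availability, rose by 1.10 in IRV and 1.21 in IRP, and Fstl1, a follistatin-like secreted protein, by 1.72 in IRV and 1.51 in IRP. Crim1, a membrane protein that binds BMPs, was the other gene that rose in IRP (0.40, edgeR adjusted p = 0.0237) and is named after its value was seen; with the depth set as covariate its adjusted p was 0.999, while Twsg1 and Fstl1 were called in both contrasts. Sostdc1, encoding an antagonist of BMP7 in the kidney, averaged 37.6 ± 8.49 CPM in IRP, 30.3 ± 2.44 CPM in IRV, 50.4 ± 10.6 CPM in NP and 52.7 ± 14.6 CPM in NV (SD, n = 4 each), and fell in IRV (-0.82, edgeR adjusted p = 0.00868). Chrdl1, a chordin-like BMP antagonist, fell in both (-1.44 in IRV, -1.83 in IRP), but it passed the filter on low counts through the uninjured groups, with a level over it in 0 IRP, 0 IRV, 4 NP and 3 NV libraries; with the depth set as covariate neither Chrdl1 nor Sostdc1 kept a call.

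Of 8 BMP target genes tested, 2 rose and 1 fell in IRV, and 2 fell in IRP, Id2 and Smad9. Id2, encoding an inhibitor of DNA-binding transcription factors, fell to 95.5 ± 20.4 CPM in IRV, against 145 ± 18.6 CPM in NV, and to 115 ± 13.9 CPM in IRP, against 158 ± 18 CPM in NP (SD, n = 4 each). The changes were -0.57 (edgeR adjusted p = 0.00923) and -0.45 (adjusted p = 0.0189) on the log2 scale, and -0.85 (adjusted p = 0.00319) and -0.93 (adjusted p = 0.0281) with the depth set as covariate. Id3, of the same family, rose in IRV (1.36, edgeR adjusted p = 0.00813), as did Atoh8 (1.80, adjusted p = 0.0383), and neither kept its call with that covariate. Atoh8 passed the filter on low counts through the injured groups, with a level over it in 3 IRP, 1 IRV, 0 NP and 0 NV libraries, and NV held 6 Atoh8 counts in all. Of 2 activin genes tested, none passed in IRV, and Inhbb, encoding an activin subunit, rose in IRP (2.71, edgeR adjusted p = 0.00536) but not with the covariate (adjusted p = 0.245). Inhbb too passed the filter through the injured groups, with a level over it in 4 IRP, 3 IRV, 0 NP and 1 NV libraries, and NP held 7 counts.

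Markers of cell types differed with injury too, beside the shares of all genes called that are given above. The fibroblast and myofibroblast list of 9 genes, of which 3 are also in a pathway list, summed to 981 to 2548 CPM in IRP, 1377 to 2151 CPM in IRV, 304 to 427 CPM in NP and 192 to 391 CPM in NV, and 7 of 9 rose in each contrast. Its lowest log2 fold change was -0.18 in IRV and -0.02 in IRP. The macrophage list summed to 421 to 1102 CPM in IRP, 552 to 942 CPM in IRV, 67.3 to 124 CPM in NP and 66.9 to 96.6 CPM in NV, and all 8 rose. The podocyte list rose in 6 of 6 genes and the endothelial list in 3 of 7, while the proximal tubule list, at 3505 to 6776 CPM in IRP, 3489.7 to 4961 CPM in IRV, 8146 to 10266 CPM in NP and 7661 to 9476 CPM in NV, fell in 7 of 7. Of 6 loop of Henle and distal tubule markers tested, 3 fell in IRV and 2 in IRP. In the fit with the depth set as covariate, fibroblast markers were higher in 7 of 9 in each contrast, macrophage markers in 8 of 8 in IRV and 6 of 8 in IRP, podocyte markers in 6 of 6 in IRV and 1 of 6 in IRP, and endothelial markers in 0 of 7 in each. Proximal tubule markers were then lower in 7 of 7 in IRV and 1 of 7 in IRP, and loop of Henle and distal tubule markers in 1 of 6 in IRV and 0 of 6 in IRP. In that fit 7.93% of all genes were higher and 6.13% lower in IRV, and 2.52% higher and 0.786% lower in IRP. No marker of these lists was at 0 in any group. The part of these cell types in the rise of Tgfb1, Tgfbr1, Tgfbr2, Ltbp1 and the target genes, and in the fall of Bmp7, was not tested.

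Within IRP, several of these measures had the same highest and lowest library. Replicate 1 was highest and replicate 2 lowest for Tgfb1, Tgfb2, Tgfbr1, Tgfbr2, Ltbp1 and Skil. The same held for the fibroblast sum (2548 and 981 CPM) and the macrophage sum (1102 and 421 CPM). Bmp7 ran the other way, with replicate 2 highest and replicate 1 lowest. So did the sum of the loop of Henle and distal tubule list (4755 CPM in replicate 2 and 1882 CPM in replicate 1). The sum of the proximal tubule list did too (6776 and 3505 CPM). A list of adrenal and fat markers summed to 168 CPM in IRP replicate 1, against 36.1, 34.4 and 49.7 CPM in replicates 2 to 4. In that list 2 of 3 tested genes rose in IRV and 3 of 3 in IRP, beside 15.9% and 19.6% of all genes. With the depth set as covariate, 1 rose in IRV and 0 in IRP, beside 7.93% and 2.52%.

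The genes whose profiles lay nearest to each of the 9 were found by the root mean square difference of centred log2 CPM over the 16 libraries, among 12071 genes. Nearest to Tgfb1 were Lpcat2 (0.30), Nostrin (0.32) and Emp2 (0.33), against a spread of Tgfb1 itself of 0.92. Nearest to Tgfbr2 were B2m (0.15), Map3k1 (0.15) and Ptpn14 (0.16), and to Tgfbr1 Ap2b1 (0.14), Chd8 (0.15) and Rps6ka3 (0.15). Nearest to Tgfb2 were Kank3 (0.33), Lilra5 (0.34) and Cd84 (0.35), to Tgfb3 Gem (0.43), Wt1 (0.48) and Flt4 (0.50), and to Ltbp1 Lsr (0.22), Zmynd8 (0.23) and Elf2 (0.24). Nearest to Bmp7 were Bsg (0.09), Dnajc13 (0.10) and Cgnl1 (0.10), to Smad7 Gtpbp1 (0.19), Pard3b (0.19) and Bmp6 (0.20), and to Skil Thoc2 (0.12), Tead1 (0.13) and Dicer1 (0.14). Among the 9 themselves, the nearest pair was Tgfbr1 and Ltbp1 (0.28), and Tgfb1 lay 0.43 from Tgfbr2. A gene of small spread, such as Bmp7 (0.25) or Skil (0.23), has small distances by construction, and all these profiles share the libraries' depth.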

How the data were processed

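The values are whole-number expected counts, not normalised, as the authors deposited them for 16 libraries. Salmon 1.3.0, DESeq2 1.30.1, Trim Galore 0.6.6, FastQC 0.11.3 and the build GRCm39 are named in the submitters' processing notes, with no roles given. Per the labels' protocols a directional kit was used; no source used here says whether molecular identifiers were counted. Names were matched by Ensembl ID for 40276 of 40472 IDs in an annotation of an older build. Salmon shares reads among similar transcripts, which can affect close paralogs.

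Counts were tested with edgeR 4.0.16 (quasi-likelihood, TMM, filterByExpr with a minimum count of 10, all 16 libraries in 1 fit, R 4.3.3), with limma 3.58.1 and DESeq2 1.42.0 as alternatives. The threshold was an adjusted p of 0.05 over 13614 genes. The method was tested on simulated counts that held no difference in composition between the depth sets, so that difference was not covered. Named were all 9 genes and, per pathway list, up to 4 past the threshold with the smallest p. The genes, lists and tests were chosen with earlier results of these data known. Replicate numbers did not pair the libraries. No pair within a group agreed within sampling noise (lowest chi-square per degree of freedom 1.77). Totals ran from 973812 to 6169748. Ligand protein sequences were not used here.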

Additional observations from a re-analysis of the deposited data

Results flagged for a closer look

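Smad7 in IRV stood out for a library far from its group: replicate 3 was at 21 CPM, against 15.7 to 16.4 CPM in the other 3, a gap of 0.864 of the group's range, above the 95% critical value of Dixon's test. It was the only flag among 40 groups of 4 libraries, and chance flags about 1 in 20.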

How the results depend on the processing

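RLE scaling and a replicate block left all 45 gene results in the same direction and on the same side of the threshold. The replicate numbers did not pair the libraries: 5 of 24 same-numbered pairs had a correlation over 0.1 (range -0.23 to 0.26), and 7 were best with their own number.

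For IRV against NV, library totals alone gave 5716 genes higher and 246 lower, with 8 of the 9 higher and 0 lower. No filter gave 600 lower and 8 of 9 higher, 0 lower. DESeq2 gave 0 of 9 lower, and limma-voom 3324 lower and 3 of 9 higher. The depth covariate gave 1080 higher and 835 lower, 3 of 9 higher and 0 lower. Shallow libraries gave 848 and 881, with 2 of the 9 higher, 0 lower and Tgfb3 not tested. For IRP against NP, totals alone gave 7012 and 1778, with 8 of 9 higher, no filter 5805 and 10928, limma-voom 3 of 9 higher, and the depth covariate 343 and 107, with 1 of 9 higher. For IRP against IRV, totals alone gave 1 and 421, no filter 9 and 1084, and DESeq2 5 and 1277; for NP against NV, no filter gave 2 higher and DESeq2 3 and 1; for the interaction, DESeq2 gave 1 and 21. All-gene counts not listed here differed from the main fit by a smaller factor than those listed. The main fit gave 2162 higher and 1511 lower for IRV against NV, and 2671 and 3264 for IRP against NP. The fit without the filter tested 40472 genes. The cause of these changes was not tested. Totals alone moved the median of all genes to 0.49 (IRV against NV) and 0.57 (IRP against NP), and no filter to -0.32 and -1.08.

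Signs turned for Bmp7 in IRV against NV with totals (0.087) and in IRP against NP with totals (0.39) and no filter (0.25), for Smad7 in IRP against NP with the depth covariate (-0.10), for Tgfbr1 in IRP against IRV with totals (0.077) and no filter (0.10), for Ltbp1 there (0.0090 and 0.025), for Skil there without the filter (0.0076), for Tgfbr2 there with the depth covariate (-0.062) and deep libraries (-0.067), and in the interaction for Ltbp1 with totals (0.085), no filter (0.11) and the depth covariate (0.080) and Tgfbr2 with no filter (0.021).

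Leaving out 1 library gave 1361 (without IRV replicate 3) to 2379 higher and 1122 to 2380 (without IRV replicate 1) lower in IRV against NV, with 4 to 5 of 9 higher and 0 to 1 lower. It gave 1972 to 2831 higher and 2936 to 4104 lower in IRP against NP (4 to 5 of 9 higher). In IRP against IRV it gave 0 to 13 higher and 0 to 1451 lower, the nonzero counts being without IRV replicate 3 or 4, in NP against NV 0 to 1 higher, without NV replicate 3 or 4, and in the interaction 0 to 5 higher and 0 to 414 lower, without IRV replicate 3. Ltbp1 in IRV against NV lost its call in 11 of 16 omissions (adjusted p 0.0503 to 0.164), namely IRP replicates 3 and 4, IRV 2, 3 and 4, NP 1, 3 and 4 and NV 2, 3 and 4; in IRP against NP it lost it without IRP 1 or 3, NP 2, 3 or 4 or NV 4 (adjusted p 0.0514 to 0.0957). Ranges that crossed 0 were -0.17 to 0.15 for Smad7 in IRP against NP; -0.16 to 0.050 for Tgfbr1, -0.070 to 0.17 for Tgfbr2 and -0.24 to 0.012 for Ltbp1 in IRP against IRV; -0.20 to 0.15 for Ltbp1, -0.026 to 0.17 for Skil and -0.60 to 0.040 for the log2 ratio of Tgfb1 to Bmp7 in NP against NV; and -0.028 to 0.47 for Tgfb1, -0.22 to 0.022 for Tgfbr2 and -0.25 to 0.12 for Ltbp1 in the interaction. Low counts of Tgfb1, Tgfb2 and Tgfb3 in shallow libraries limit what those libraries can show.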
